A study of Mus musculus with 24 samples.

Results

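Extracellular nucleotide signalling in mouse muscle was followed through 10 genes: the P2X receptors P2rx4 and P2rx7, the P2Y receptors P2ry2, P2ry6, P2ry12 and P2ry14, the adenosine receptors Adora2a and Adora2b, and the ectonucleotidases Entpd1 and Nt5e. They were taken by name from a list, and all 10 were found among the 54532 genes counted in each sample. RNA of the left gastrocnemius, a calf muscle, was sequenced in 24 samples from C57/BL6 mice labelled WT, 4 in each of 6 groups that combined sex with 3 conditions. In the control groups, sedentary animals received saline at pH 7.2 in the muscle on 2 occasions separated by 5 days, 20 µl at a time. In the sedentary pain groups the injected solution had a pH of 5.0, and electrical stimulation made the muscle contract for 6 min before it was injected for the second time. Active pain animals had access to running wheels for 8 weeks and then went through the pain procedure. All samples carry a time label of 24 h. Controls had neither acid nor contraction and there was no active group without pain, so acid and contraction cannot be told apart, and running was compared only under pain. Age is not in the labels. The question, after the series' title, was how muscle pain and prior activity go with transcription in each sex.

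ATP leaves cells that are stressed, contracting or damaged and acts on P2X receptors, which are ATP-gated cation channels, and on P2Y receptors, which couple to G proteins. ENTPD1 (CD39) hydrolyses ATP and ADP to AMP, and NT5E (CD73) turns AMP into adenosine, which acts on adenosine receptors. In muscle this signalling is known from the excitation of nociceptive afferents, the control of blood flow during exercise and the recruitment and activation of immune cells.

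Total counts per sample ranged from 17612139 to 34039699. The 5 skeletal myofibre markers (Acta1, Ckm, Myh4, Myh1 and Myh2) summed to 58881 to 146056 CPM (counts scaled to the same library total) over the samples, so the defining genes of the labelled tissue were present in all. That sum was lowest in female sedentary pain replicates 3 and 4, at 69339 and 58881 CPM. Some samples stood apart in immune cell markers. The sum of 10 macrophage and monocyte markers was 409, 696, 3480.5 and 4707 CPM in replicates 1 to 4 of female sedentary pain. In males it was 751, 109, 183 and 400.0 CPM in sedentary pain, where replicate 1 was highest, and 204, 444, 171 and 321 CPM in active pain, where replicate 2 was highest. The controls lay at 78.2 to 179 CPM in females and 56.8 to 116 CPM in males. In bulk RNA, fewer cells of a type and less RNA per cell cannot be told apart, and the same holds for more of either. The labels do not say in words that each replicate is a separate animal, so p-values measure the spread between these samples.

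The promoters of 4 genes that rose in female sedentary pain are shown. They are the 4 with the smallest p in that comparison among those with an entry in the table used. P2ry12 also rose and has an entry, but came after them by p, so its sequence is not shown and its matches are given with the motifs. P2ry6, which rose too, and Adora2a had no entry. Each is the 250 bases before the outermost listed start site, from RefSeq on GRCm38.p6, read 5′ to 3′ on the gene's strand. Capitals mark a match to the AP-1 motif TGANTCA, the only motif of those searched that occurred in these 4 windows.
P2rx4, chr5:122707294-122707543, plus strand: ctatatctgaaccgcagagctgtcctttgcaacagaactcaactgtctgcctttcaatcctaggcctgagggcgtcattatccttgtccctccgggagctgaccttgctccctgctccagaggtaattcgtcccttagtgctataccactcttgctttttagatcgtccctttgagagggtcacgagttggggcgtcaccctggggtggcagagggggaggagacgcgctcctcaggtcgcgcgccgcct
P2rx7, chr5:122643677-122643926, plus strand: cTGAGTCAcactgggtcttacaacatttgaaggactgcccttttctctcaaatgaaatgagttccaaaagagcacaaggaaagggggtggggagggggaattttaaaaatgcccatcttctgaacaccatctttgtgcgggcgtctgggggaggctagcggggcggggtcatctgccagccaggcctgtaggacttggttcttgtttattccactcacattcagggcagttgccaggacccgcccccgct
Adora2b, chr11:62248734-62248983, plus strand: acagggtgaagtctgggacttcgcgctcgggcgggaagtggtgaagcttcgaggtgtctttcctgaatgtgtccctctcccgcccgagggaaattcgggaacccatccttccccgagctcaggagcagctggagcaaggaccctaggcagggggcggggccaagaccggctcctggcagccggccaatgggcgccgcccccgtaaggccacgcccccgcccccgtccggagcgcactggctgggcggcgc
Entpd1, chr19:40612116-40612365, plus strand: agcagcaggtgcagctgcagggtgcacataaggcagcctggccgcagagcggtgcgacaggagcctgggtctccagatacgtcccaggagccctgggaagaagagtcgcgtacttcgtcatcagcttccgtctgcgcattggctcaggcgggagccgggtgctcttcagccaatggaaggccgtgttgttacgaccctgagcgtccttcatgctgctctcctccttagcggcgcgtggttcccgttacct
The motifs were searched on both strands in the windows of the 8 genes with an entry and in all 32851 listed windows of that length. AP-1 (TGANTCA) occurred in 2 of the 8, P2rx7 at 249 and P2ry14 at 202 bases before the start, and in 6.75% of all windows. ETS (AGGAAGT) occurred in P2ry12 only, 52 bases before the start, against 7.69% of all windows. The hypoxia response core ACGTG occurred in P2ry12 only, as overlapping matches on the 2 strands at 228 and 227 bases, against 16.6% of all windows. The NF-kappaB motif (1.41% of all windows) and the interferon-stimulated response element (2.98%) were found in 0 of the 8 windows. These matches describe letters in a window, and no match says only that the letters are not there.

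In control muscle, P2ry2, a receptor for ATP and UTP, was the most abundant of the 10 genes per length of transcript, with a level of 8.37 ± 2.63 CPM per kb (SD, n = 4) in females and 8.20 ± 0.680 CPM per kb in males. Entpd1 followed with a level of 1.38 ± 0.145 and 1.46 ± 0.210 CPM per kb. P2rx4 (0.820 ± 0.387 CPM per kb), Adora2a (0.740 ± 0.329) and P2ry6 (0.445 ± 0.184) came next in female controls, in an order that lay within their spread. From Entpd1 down, the ranges of neighbouring genes overlapped at every step in female controls. The same genes held places 3 to 5 in male controls, where P2ry6 (0.686 ± 0.249 CPM per kb), Adora2a (0.572 ± 0.146) and P2rx4 (0.509 ± 0.151) again did not differ beyond their spread. In male controls P2ry2, Entpd1 and then P2ry6 were separated in their ranges, as were P2rx4 and the next gene, Nt5e. Adora2b, P2rx7 and Nt5e had levels of 0.243 ± 0.0999, 0.231 ± 0.0779 and 0.188 ± 0.0331 CPM per kb in female controls, also within their spread. P2ry12 and P2ry14 were lowest, with levels of 0.138 ± 0.0356 and 0.102 ± 0.00945 CPM per kb in females and 0.169 ± 0.0834 and 0.0652 ± 0.0155 CPM per kb in males. The low levels limit precision: P2ry12 rested on 3 to 55 reads in a sample, whereas P2ry2 had at least 417 in every sample.

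In females, 6 of the 10 genes rose with sedentary pain against control: both P2X receptors, P2ry6 and P2ry12 among the P2Y receptors, Adora2b, and Entpd1. None fell. Of all 14511 genes tested, 33.5% passed the threshold in this comparison and 19.6% rose, so a call here is common. The median log2 fold change over the 10 genes was 1.40, against -0.02 over all genes tested. The 2 groups did not overlap for P2rx7, P2ry6, Adora2b and Entpd1, all higher with pain, and 15.3% of all genes were higher without overlap. Fold changes are given as log2 ± standard error from edgeR's quasi-likelihood test, with Benjamini-Hochberg adjusted p-values over all genes tested and a threshold of 0.05.

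**Figure D1:**
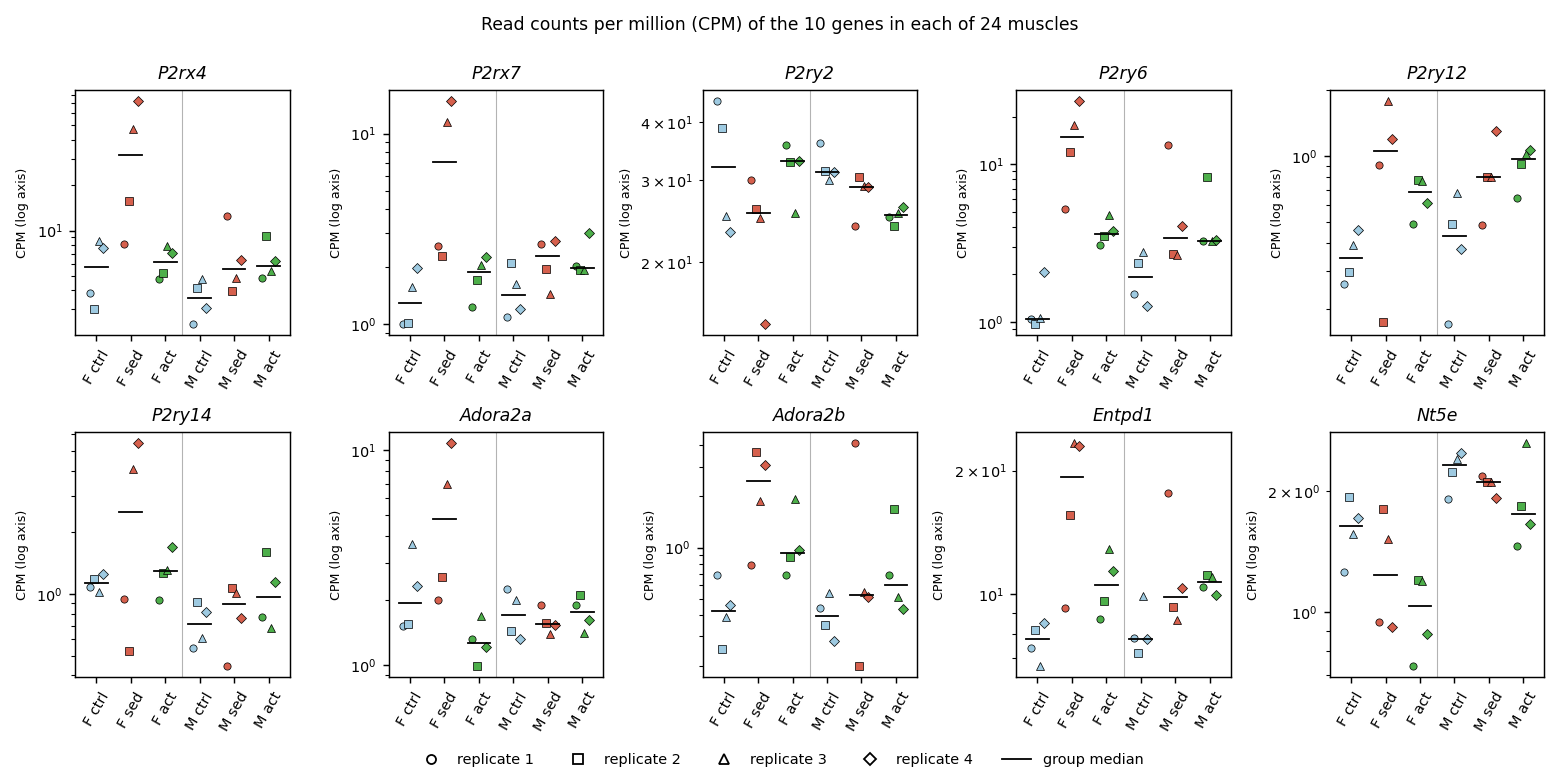
CPM of the 10 genes in each of the 24 muscles, on log axes that differ between panels; F and M are female and male, ctrl, sed and act are control, sedentary pain and active pain, marker shapes are replicates 1 to 4 and bars are group medians. Female sedentary pain samples reach 72.3 CPM for P2rx4 and 25 CPM for P2ry6, and replicate 1 of male sedentary pain stands above the rest of its group for P2ry6 and Adora2b.

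P2rx4 (ENSMUSG00000029470, chromosome 5, 122707544 to 122729738, plus strand) encodes an ATP-gated channel of endosomes and the plasma membrane that is known from macrophages. It had 3.86, 3.03, 8.52 and 7.64 CPM in replicates 1 to 4 of female controls and 8.17, 15.7, 47.5 and 72.3 CPM in female sedentary pain. Replicates 3 and 4 carried most of the rise, and replicate 1 lay below the highest control. The log2 fold change was 2.61 ± 0.60 (adjusted p = 0.00913), from a mean of 5.76 ± 2.72 to 35.9 ± 29.6 CPM (SD, n = 4). P2rx7 (ENSMUSG00000029468, chromosome 5, 122643911 to 122691432, plus strand), the channel that opens at high ATP and is known for NLRP3 inflammasome activation, had 0.997, 1.01, 1.56 and 1.96 CPM in controls. With sedentary pain it had 2.57, 2.28, 11.6 and 14.8 CPM, above every control in all 4 samples. Its log2 fold change was 2.47 ± 0.57 (adjusted p = 0.00916). The annotation places the microRNA gene Mir8115 inside P2rx7 on the same strand, with 119 shared exon bases.

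P2ry6 (ENSMUSG00000048779, chromosome 7, 100937630 to 100974649, minus strand), a receptor for UDP that is known from phagocytosis, had the largest change of the 10. Female controls had 1.04, 0.968, 1.05 and 2.08 CPM and sedentary pain samples 5.18, 11.9, 17.8 and 25 CPM. All 4 pain samples lay above every control. The log2 fold change was 3.51 ± 0.44 (adjusted p = 0.00231), and its call held under each of 25 alternatives run. P2ry12 (ENSMUSG00000036353, chromosome 3, 59216272 to 59262871, minus strand), an ADP receptor known from platelets, had 0.260, 0.294, 0.391 and 0.459 CPM in controls and 0.908, 0.175, 1.78 and 1.20 CPM with sedentary pain. Replicate 2 lay below every control and the other 3 above. The log2 fold change of 1.52 ± 0.50 (adjusted p = 0.0361) lost its call when any 1 of the 4 controls, or sedentary pain replicate 3 or 4, was left out (adjusted p from 0.0582 to 0.091). It was also lost with no filter on low counts (adjusted p = 0.0526) and in a fit of just the 2 groups compared (adjusted p = 0.0732), and in 11 of 24 alternatives in all. The other 5 genes passed without any 1 of these samples. P2ry12 and P2ry14 lie opposite the gene Med12l, and P2ry12 shares 9 exon bases with it. Whether the counts used strand is not given in the sources used here. Med12l had 1.05 ± 0.547 CPM in female controls and 0.330 ± 0.105 CPM in female sedentary pain.

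P2ry2 (ENSMUSG00000032860, chromosome 7, 100996568 to 101012866, minus strand) did not pass the test. It had 44.3, 38.8, 25.1 and 23.2 CPM in female controls and 30.0, 26.0, 24.9 and 14.7 CPM with sedentary pain, and the groups overlapped (log2 fold change -0.47 ± 0.25, adjusted p = 0.147). P2ry14 (ENSMUSG00000036381, chromosome 3, 59113855 to 59153618, minus strand), a receptor for UDP-glucose, had 1.08, 1.18, 1.02 and 1.25 CPM in controls and 0.946, 0.526, 4.09 and 5.44 CPM with sedentary pain. Its pain samples lay on both sides of the controls, with replicates 1 and 2 below all of them and replicates 3 and 4 above. The log2 fold change was 1.27 ± 0.57 (adjusted p = 0.0968). It passed in a fit of all 24 samples (adjusted p = 0.0446) and with the GC and length correction (0.0363). It also passed without sedentary pain replicate 1 (0.0321) or 2 (0.0279). With 1 sample left out, the log2 fold change of P2ry14 ranged from 0.74 to 1.62.

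Among the adenosine receptors, Adora2b (ENSMUSG00000018500, chromosome 11, 62248984 to 62266453, plus strand), the low-affinity receptor that couples to cyclic AMP, rose. It had 0.693, 0.252, 0.391 and 0.459 CPM in female controls and 0.794, 3.68, 1.88 and 3.07 CPM with sedentary pain, with no overlap. The log2 fold change was 2.35 ± 0.50 (adjusted p = 0.00664). Adora2a (ENSMUSG00000020178, chromosome 10, 75316877 to 75334784, plus strand), the high-affinity receptor of that pathway, had 1.52, 1.56, 3.67 and 2.32 CPM in controls and 2.00, 2.57, 7.0 and 10.8 CPM with pain. Only replicates 3 and 4 lay above the controls, and the log2 fold change of 1.28 ± 0.49 missed the threshold (adjusted p = 0.0611). It passed with DESeq2 (adjusted p = 0.0272) and in a fit of all 24 samples (0.0174). It also passed without sedentary pain replicate 1 (0.014), sedentary pain replicate 2 (0.041) or control replicate 3 (0.0414). With 1 sample left out, the log2 fold change of Adora2a ranged from 0.78 to 1.61.

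The ectonucleotidases parted. Entpd1 (ENSMUSG00000048120, chromosome 19, 40612366 to 40741602, plus strand) had 7.41, 8.16, 6.68 and 8.50 CPM in female controls and 9.27, 15.6, 23.3 and 23.0 CPM with sedentary pain. Every pain sample was above every control, and the log2 fold change was 1.19 ± 0.26 (adjusted p = 0.00687). Nt5e (ENSMUSG00000032420, chromosome 9, 88327197 to 88372092, plus strand) had 1.26, 1.94, 1.56 and 1.71 CPM in controls and 0.946, 1.81, 1.52 and 0.919 CPM with pain. These groups overlapped and the log2 fold change of -0.34 ± 0.28 did not pass (adjusted p = 0.345).

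Markers of immune cells, fat, endothelium and other cells moved with these genes. In female sedentary pain, 10 of 10 macrophage and monocyte markers rose, and their sum was at least 409 CPM in each sample against at most 179 CPM in controls. Its order over the pain samples, lowest in replicate 1 and highest in replicate 4, was also that of P2rx4, P2ry6 and Adora2a. The T cell, dendritic cell and B cell marker sums, given below, had this order too. Of the 5 resident macrophage markers, 3 rose, with sums of 22.4 to 41.5 CPM in controls and 50.2 to 133 CPM with pain. The 6 neutrophil markers summed to 0.859 to 3.42 CPM in controls and to 20.9, 245, 37.8 and 53.3 CPM in pain replicates 1 to 4; 4 of the 5 tested rose, and Ly6g, the most specific of them, was at 0 in 1 pain sample and at most 0.467 CPM in the others. Adora2b, like that sum, was highest in replicate 2, as were the platelet, smooth muscle, Schwann cell and skeletal myofibre marker sums. Platelet markers summed to 3.95 to 10.2 CPM in controls and to 22.3, 69.4, 16.5 and 26.3 CPM in pain replicates 1 to 4. Among them, Gp1ba and Gp9 stayed at or below 0.116 CPM in every sample of the study. Of 5 T cell markers, 2 were tested and both rose, with sums of 0.294 to 1.41 CPM in controls and 2.16, 2.34, 32.7 and 48.5 CPM in pain replicates 1 to 4. Dendritic cell markers summed to 5.81 to 6.68 and 7.34 to 30.7 CPM (Flt3 and Itgax rose, of 3 tested), and B cell markers to 0.217 to 0.734 and 0.303 to 4.77 CPM (Cd79a, the 1 tested, rose). In the opposite direction, 3 of the 4 adipocyte markers fell, with sums of 61.6, 36.4, 823 and 424 CPM in control replicates 1 to 4 and 15.8, 39.1, 108 and 17.2 CPM with pain. Of the 4 endothelial markers Cdh5 and Kdr fell, and their sum was 152 to 173 CPM in controls and lower in every pain sample, 118 to 139.9 CPM. Of the fibroblast markers Col1a1 rose (1 of 4), with sums of 411 to 522 CPM in controls and 255 to 657 CPM with pain. Of the smooth muscle markers Myh11 fell (1 of 3), with sums of 72.9 to 112 and 54.5 to 93.2 CPM, and of the 5 skeletal myofibre markers Myh2 fell. None of the 4 mast cell markers passed (14.5 to 33.8 and 12.3 to 50.9 CPM) and none of the 3 Schwann cell markers (27.1 to 95.4 and 27.1 to 52.6 CPM). The mitochondrial share of the counts was 8.59 to 11% in female controls and lower in each sedentary pain sample, 2.75 to 8.22%. The 10 most abundant genes of each sample took 25.4 to 30.1% of the counts in controls and 27.2, 30.3, 21 and 19.3% in pain replicates 1 to 4, lowest in replicates 3 and 4. The part of these cells and shares in the changes of the 10 genes was not tested.

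A number in the library names divides the samples into replicates 1 and 2 (20 or lower) and replicates 3 and 4 (25 or higher); what it stands for is not stated. Within the lower numbers, 1 of the 10 genes passed in female sedentary pain against control, P2ry6 at 3.07 on the log2 scale, as did 1.67% of all genes, while the value was 1.77 for P2rx4, 1.26 for P2rx7, 1.03 for P2ry12, 2.19 for Adora2b and 0.66 for Entpd1. Within the higher numbers, 8 of 10 passed (22.4% of all genes), with 2.88 for P2rx4, 2.89 for P2rx7, 3.74 for P2ry6, 1.79 for P2ry12, 2.52 for Adora2b and 1.60 for Entpd1. Each of the 6 genes was higher with pain in both subsets. P2ry14 was not, at -0.59 in the lower and 2.05 in the higher numbers. With the split fitted as a factor on all female samples, each of the 6 genes kept its call. Adora2a passed there too (adjusted p = 0.0216 with edgeR). With 1 surrogate variable fitted, P2ry6 alone passed, as 0.786% of all genes did. The values of the other called genes were then 0.17 for P2rx4, 0.54 for P2rx7, 1.03 for P2ry12, 1.17 for Adora2b and 0.37 for Entpd1.

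The second question was whether prior running went with a different state after the pain procedure. In females, 4 of the 10 genes fell in active against sedentary pain: P2rx4, P2rx7, P2ry6 and Adora2a. None rose. Of all genes tested, 11.9% passed and 9.41% fell. The median log2 difference over the 10 genes was -1.05, against 0.01 over all genes. For these 4 genes the groups did not overlap, and 6.37% of all genes were lower without overlap. This comparison shares its sedentary pain samples with the one above.

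P2rx4 had 4.75, 5.23, 7.90 and 7.08 CPM in female active pain, with every sample below the lowest sedentary pain value of 8.17 CPM. The log2 difference, active minus sedentary, was -2.50 ± 0.59 (adjusted p = 0.0328). P2rx7 had 1.22, 1.70, 2.04 and 2.25 CPM (log2 difference -2.09 ± 0.56, adjusted p = 0.0365). P2ry6 had 3.09, 3.50, 4.78 and 3.77 CPM, a narrow group with a mean of 3.78 ± 0.720 against 15.0 ± 8.47 in sedentary pain (log2 difference -1.96 ± 0.41, adjusted p = 0.0328). Adora2a had 1.32, 0.989, 1.69 and 1.22 CPM, with 3 samples below every female control and replicate 3 above 2 of them (log2 difference -2.09 ± 0.51, adjusted p = 0.0328).

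The other 6 genes did not pass. Entpd1 had 8.67, 9.64, 12.9 and 11.4 CPM, between the other female groups in its mean (log2 difference -0.72 ± 0.25, adjusted p = 0.0772), and passed with DESeq2 (adjusted p = 0.0404), in a fit of all 24 samples (0.0407) and without sedentary pain replicate 1 (0.00423). Adora2b had 0.686, 0.883, 1.93 and 0.973 CPM (-1.04 ± 0.47, adjusted p = 0.147, and 0.0268 without sedentary pain replicate 1), and P2ry14 had 0.931, 1.27, 1.31 and 1.70 CPM (-1.06 ± 0.56, adjusted p = 0.207). P2ry12 was at 0.490 to 0.777 CPM, Nt5e at 0.735 to 1.20 CPM and P2ry2 at 25.5 to 35.7 CPM, with log2 differences of -0.63 ± 0.47, -0.34 ± 0.29 and 0.42 ± 0.25 (smallest adjusted p = 0.245).

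Leaving out 1 library removed the 4 calls of this comparison in 5 cases. Without active pain replicate 1, 2 or 4, or without sedentary pain replicate 3 or 4, none of the 10 genes passed (adjusted p from 0.0636 to 0.114 for the 4), and at most 0.0204% of all genes did. Without active pain replicate 3, P2rx7 no longer passed (adjusted p = 0.0527). All 4 calls were also lost when just the 2 groups compared were fitted (adjusted p from 0.0877 to 0.0911), and P2rx4, P2rx7 and Adora2a lost theirs with no filter on low counts (adjusted p from 0.0551 to 0.0618). The differences themselves kept their direction, from -2.87 to -1.93 for P2rx4 and from -2.40 to -1.57 for Adora2a with 1 sample left out. Within the lower library numbers none of the 4 passed (0% of all genes), at -1.26 for P2rx4, -0.74 for P2rx7, -1.38 for P2ry6 and -1.0 for Adora2a, and within the higher numbers all 4 did (15.0% of all genes), at -3.00, -2.61, -2.33 and -2.62. With the split fitted as a factor on all female samples, P2rx4, P2rx7, P2ry6 and Adora2a kept their calls. Entpd1 passed there too (adjusted p = 0.0428 with edgeR). With 1 surrogate variable none of the 10 genes passed (0% of all genes). The values were then -0.32 for P2rx4, -0.40 for P2rx7, -0.61 for P2ry6 and -0.41 for Adora2a. Beside these genes, 8 of 10 macrophage and monocyte markers fell, to sums of 198, 229, 419 and 376 CPM in active pain replicates 1 to 4. No neutrophil marker passed, with sums of 4.80, 45.6, 107 and 5.17 CPM. Both tested T cell markers fell, to sums of 0.441 to 1.08 CPM, and of the 3 tested dendritic cell markers Flt3 fell, with sums of 4.52 to 9.13 CPM. No fibroblast, smooth muscle, endothelial, mast cell, Schwann cell or skeletal myofibre marker passed. Resident macrophage markers summed to 42.2 to 65.4 CPM in active and 50.2 to 133 CPM in sedentary pain. In the same order, platelet markers summed to 9.39 to 23.2 and 16.5 to 69.4 CPM. B cell markers summed to 0.294 to 1.13 and 0.303 to 4.77 CPM, and adipocyte markers to 36.3 to 94.0 and 15.8 to 108 CPM. The mitochondrial share of the counts was 6.67 to 11.4% in active pain and 2.75 to 8.22% in sedentary pain. The part of these cells and shares in the result was not tested.

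Active pain against control in females gave 0 of the 10 genes past the threshold with edgeR, as of all genes (0% called), 3 of the 10 at an unadjusted p under 0.05 (7.03% of all genes), and 1 with DESeq2 (0.862% of all genes). That 1 was P2ry6 (adjusted p = 0.0451), whose edgeR log2 fold change was 1.54 ± 0.42 (adjusted p = 0.565). All 4 active pain samples exceeded all 4 controls for P2ry6, P2ry12 and Entpd1, where 3.6% of all genes were higher without overlap. Nt5e lay below every control in all 4 samples, at 0.735, 1.20, 1.19 and 0.882 CPM, as 1.83% of all genes did (log2 fold change -0.68 ± 0.28, adjusted p = 0.658). Log2 fold changes of the others were 1.31 ± 0.50 for Adora2b, 0.90 ± 0.51 for P2ry12, 0.47 ± 0.25 for Entpd1 and -0.80 ± 0.50 for Adora2a. P2rx4, P2rx7, P2ry2 and P2ry14 lay within their standard error of 0, at 0.11 ± 0.58, 0.38 ± 0.56, -0.05 ± 0.25 and 0.21 ± 0.57. Macrophage and monocyte markers summed to 198 to 419 CPM, against 78.2 to 179 CPM in controls. Resident macrophage markers summed to 42.2 to 65.4 against 22.4 to 41.5 CPM, and neutrophil markers to 4.80 to 107 against 0.859 to 3.42 CPM. Dendritic cell, T cell, B cell and platelet marker sums overlapped the controls. The part of these cells was not tested.

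In males, 0 of the 10 genes passed for sedentary pain against control, with edgeR as with DESeq2, and of all genes 0% did with edgeR and 1.9% with DESeq2. At an unadjusted p under 0.05 there were 4 of the 10, against 8.84% of all genes. The groups overlapped for each of the 10 genes, while they did not for 8.07% of all genes. P2ry6 had 1.50, 2.38, 2.78 and 1.26 CPM in male controls and 13.2, 2.71, 2.66 and 4.08 CPM with sedentary pain. Replicate 1 stood far above the other 3, of which replicate 4 lay above every control and the others among them. The log2 fold change was 1.53 ± 0.55 (adjusted p = 0.433), and 0.69 without replicate 1.

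Replicate 1 also set the value of Adora2b. This gene had 0.444, 0.350, 0.543 and 0.283 CPM in male controls and 4.12, 0.201, 0.549 and 0.510 CPM with sedentary pain, and the log2 fold change went from 1.73 ± 0.82 (adjusted p = 0.577) to 0.05 without replicate 1. P2rx4 had 2.39, 4.13, 4.75 and 3.05 CPM in controls and 12.4, 3.98, 4.81 and 6.33 CPM with pain, or 0.96 ± 0.36 on the log2 scale and 0.51 without replicate 1. Entpd1 had 7.81, 7.20, 9.87 and 7.77 CPM in controls and 17.7, 9.30, 8.66 and 10.4 CPM with pain (0.51 ± 0.21, and 0.23 without it). In P2ry12, by contrast, replicate 1 was the lowest pain sample: 0.171, 0.490, 0.679 and 0.378 CPM in controls and 0.485, 0.803, 0.802 and 1.31 CPM with pain, 1.0 ± 0.40 with and 1.19 without it. P2rx7 had 1.09, 2.1, 1.63 and 1.20 and 2.63, 1.94, 1.44 and 2.73 CPM (0.56 ± 0.28). Replicate 1 was the highest of its group for 6 of the 10 genes, and it also had the group's highest sums of macrophage and monocyte markers, 751 CPM, and of neutrophil markers, 290.3 CPM against 2.03 to 2.44 CPM in the other samples of its group. Replicate 1 was also highest in platelet markers (86.6 against 5.66 to 10.2 CPM), mast cell markers (34.1 against 12.2 to 15.7 CPM) and smooth muscle markers (112 against 53.5 to 71.1 CPM). It was lowest in fibroblast markers (308 against 492 to 616 CPM) and in the mitochondrial share (4.53% against 10.4 to 11.3%). The part of these cells and shares in the male values was not tested.

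The remaining receptors and Nt5e had smaller differences in males. P2ry2 was at 30.1 to 36.1 CPM in male controls and 24.0 to 30.5 CPM with sedentary pain (-0.18 ± 0.10), P2ry14 at 0.546 to 0.909 and 0.444 to 1.07 CPM (0.21 ± 0.34), and Adora2a at 1.32 to 2.25 and 1.39 to 1.90 CPM (-0.11 ± 0.22). Nt5e had 1.91, 2.24, 2.41 and 2.49 CPM in controls and 2.18, 2.11, 2.11 and 1.93 CPM with pain (-0.10 ± 0.19).

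Male active pain against control again gave 0 of 10 past the threshold with edgeR (0% of all genes), 3 of 10 at an unadjusted p under 0.05 (7.25% of all genes) and 1 with DESeq2 (0.892% of all genes). That gene was P2ry2, with 36.1, 31.4, 30.1 and 31.2 CPM in male controls and 25, 23.9, 25.5 and 26.3 CPM in active pain. All active samples were below all controls, as for 4.06% of all genes, and the log2 fold change was -0.35 ± 0.10 (adjusted p = 0.478 with edgeR and 0.0485 with DESeq2). P2rx4 (4.82, 9.24, 5.40 and 6.25 CPM), P2ry6 (3.27, 8.32, 3.25 and 3.28 CPM) and Entpd1 (10.4, 11.1, 11 and 9.97 CPM) lay above every control in all 4 samples, against 6.34% of all genes. Their log2 fold changes were 0.85 ± 0.36, 1.19 ± 0.55 and 0.38 ± 0.21, and without active pain replicate 2, which had the highest value of its group in 6 of the 10 genes, 0.63, 0.73 and 0.37. That replicate also had the highest macrophage and monocyte sum of its group, and a neutrophil marker sum of 76.6 CPM against 2.97 to 7.58 CPM in the other 3. P2ry12 had 0.646, 0.920, 1.03 and 1.07 CPM (1.09 ± 0.40), Adora2b 0.689, 1.68, 0.513 and 0.435 CPM (1.03 ± 0.84, and 0.44 without replicate 2) and P2rx7 2.02, 1.92, 1.92 and 3.01 CPM (0.56 ± 0.28). P2ry14, Nt5e and Adora2a were at 0.54 ± 0.34, -0.24 ± 0.19 and 0.01 ± 0.22 on the log2 scale, and at 0.28, -0.22 and -0.086 without replicate 2.

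Between active and sedentary pain in males, 0 of the 10 genes passed, 0 at an unadjusted p under 0.05 and 0 with DESeq2. Of all genes tested, 0% passed with DESeq2. With edgeR 0% passed and 0.84% had an unadjusted p under 0.05. The groups overlapped for each of the 10 genes, while they did not for 0.646% of all genes.

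**Figure D2:**
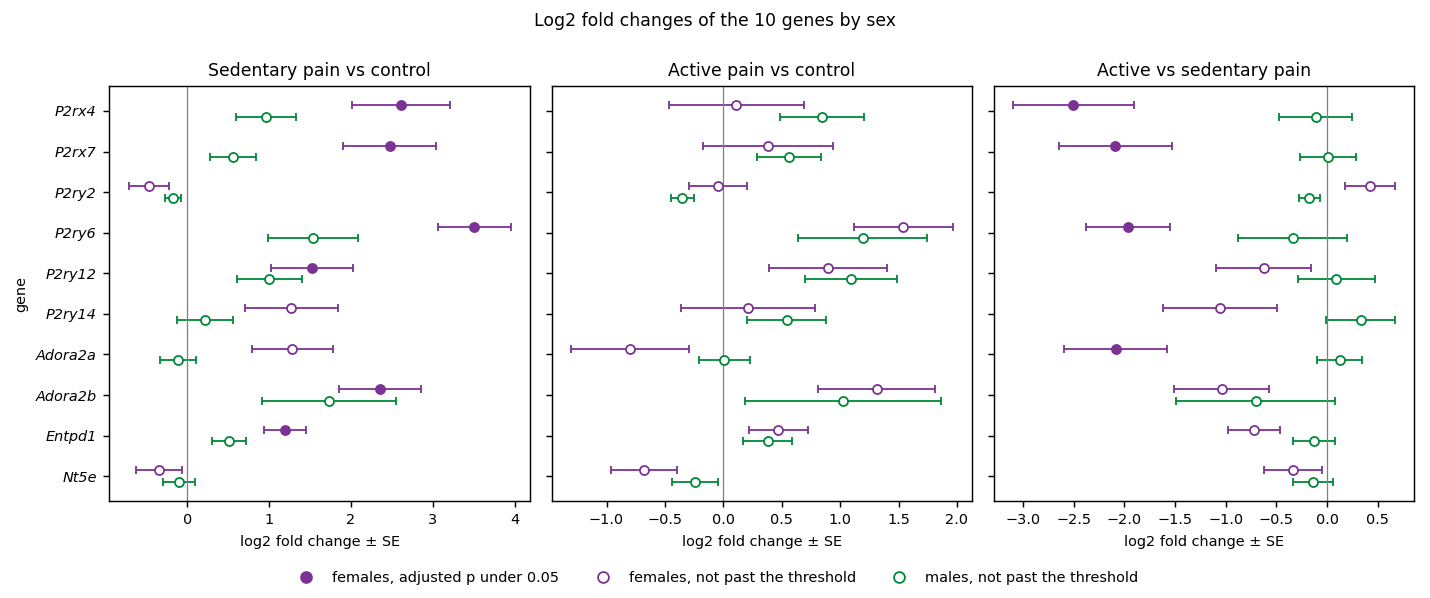
Log2 fold changes ± standard error of the 10 genes in females (purple) and males (green) for the 3 comparisons within a sex, on x axes that differ between panels; filled points have an adjusted p under 0.05. In the left panel 6 female points are filled, in the right panel 4, and every male point is open.

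Whether a change differed between the sexes was tested in a fit of all 24 samples, as the female minus the male log2 fold change. For sedentary pain against control, 0 of the 10 differed with edgeR (0% of all genes) and 0 with DESeq2 (0.0994% of all genes), and 5 had an unadjusted p under 0.05 (9.57% of all genes). These were P2ry6 (2.01 ± 0.72), P2rx7 (1.95 ± 0.65), P2rx4 (1.70 ± 0.72), Adora2a (1.44 ± 0.56) and Entpd1 (0.72 ± 0.34), with adjusted p-values from 0.432 to 0.516. For active against sedentary pain, 0 differed with edgeR (0% of all genes) and 1 with DESeq2 (0.936% of all genes), and 4 had an unadjusted p under 0.05 (14.7% of all genes). P2rx4 was at -2.43 ± 0.72, Adora2a at -2.24 ± 0.57 and P2rx7 at -2.13 ± 0.64, each with an adjusted p of 0.228, and P2ry6 at -1.66 ± 0.70 (adjusted p = 0.299). The gene called by DESeq2 was Adora2a (adjusted p = 0.0339). For active pain against control, 0 of the 10 differed with edgeR (0% of all genes) or DESeq2 (0.0199% of all genes), and 0 had an unadjusted p under 0.05 (2.03% of all genes). With all 24 samples and edgeR, the calls made in females and not in males thus came without a called difference between the sexes.

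Leaving out 1 sample at a time changed this in 2 of 24 fits for active against sedentary pain. For sedentary pain against control and for active pain against control, the count stayed at 0 in all 24 fits. Over these fits, the sex difference of P2ry6 ranged from -2.51 to -1.19 for active against sedentary pain. That of Adora2a ranged from 0.83 to 1.76 for sedentary pain against control. Without replicate 1 of male sedentary pain, 5 of the 10 genes differed between the sexes for active against sedentary pain (14.1% of all genes), namely P2rx4 (-2.87), P2ry6 (-2.51), Adora2a (-2.33), P2rx7 (-2.23) and Entpd1. Without replicate 1 of female sedentary pain, 3 did (4.04% of all genes): P2rx4 (-2.75), Adora2a (-2.52) and P2rx7 (-2.42). With the higher library numbers alone, 5 of 10 differed in that comparison (7.71% of all genes) and 5 of 10 for sedentary pain against control (8.51%), P2rx4, P2rx7, P2ry6, Adora2a and Entpd1 in both; with the lower numbers alone, 0 in both (0% of all genes in both).

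**Figure D3:**
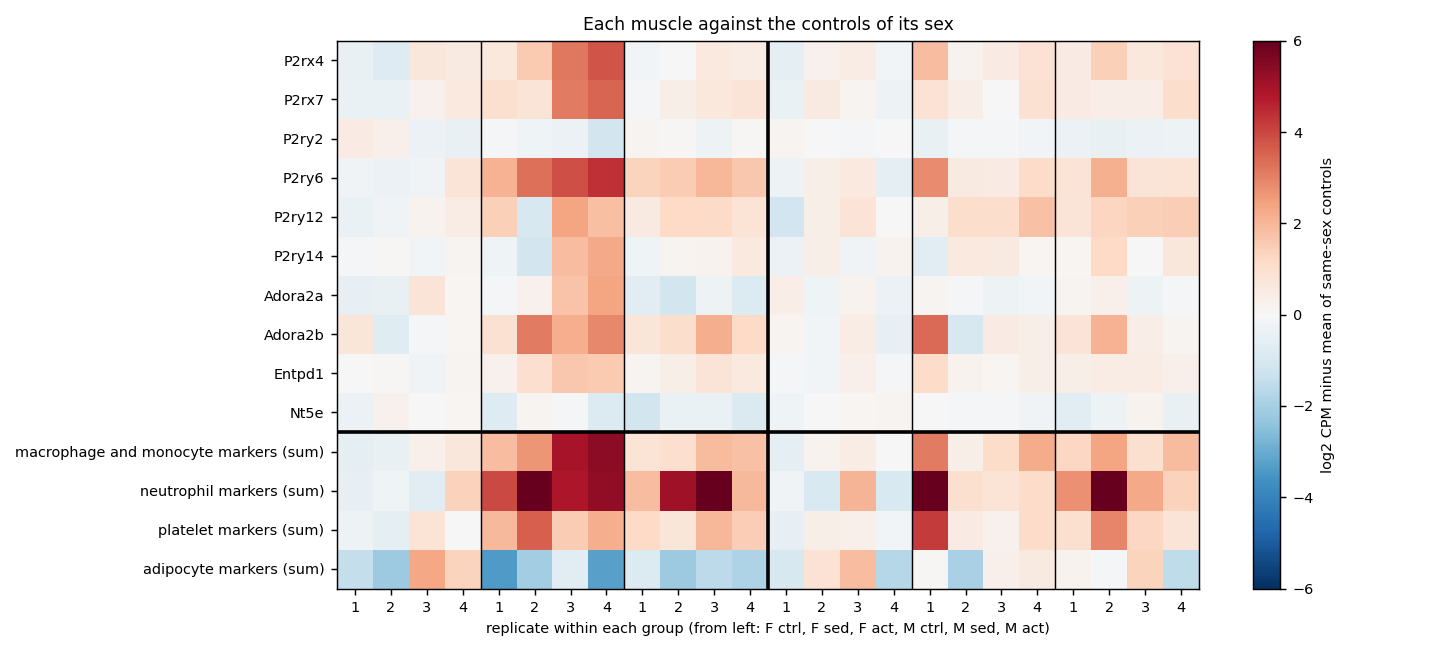
Each muscle's log2 CPM minus the mean of the controls of its sex, for the 10 genes and for summed markers of 4 cell types; columns are replicates 1 to 4 of each group in the order named under the axis, and colours end at 6 in either direction, with larger values drawn as 6. Replicates 3 and 4 of female sedentary pain, replicate 1 of male sedentary pain and replicate 2 of male active pain are redder than the rest of their groups in the macrophage row and in P2ry6.

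Male and female controls were compared as the background. With edgeR, 0 of the 10 genes differed (2.83% of all genes), 1 had an unadjusted p under 0.05 (14.9% of all genes), and 0 differed with DESeq2 (4.77% of all genes). That 1 was Nt5e, at 2.26 ± 0.255 CPM in males and 1.62 ± 0.285 CPM in females (adjusted p = 0.334). P2ry14 was lower in every male control (0.546, 0.909, 0.611 and 0.818 CPM) than in any female control (1.08, 1.18, 1.02 and 1.25 CPM), as 9.3% of all genes were.

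Ratios within a muscle set the genes of one step against each other; they are descriptions with no test, on the log2 scale of CPM per kb. The ratio of Entpd1, which makes AMP, to Nt5e, which uses it, was 3.18, 2.70, 2.72 and 2.94 in female controls and 3.92, 3.73, 4.56 and 5.27 in female sedentary pain. Females with active pain had 4.19, 3.63, 4.06 and 4.31, so that all 8 female pain samples lay above the 4 controls. Male controls had 2.66, 2.31, 2.66 and 2.27, males with sedentary pain 3.64, 2.77, 2.66 and 3.05 and those with active pain 3.45, 3.22, 2.68 and 3.21. In both male pain groups each sample was above the highest control, replicate 3 only just.

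The ratio of Adora2b to Adora2a, the low-affinity to the high-affinity receptor, was -0.40, -1.89, -2.50 and -1.61 in female controls and -0.60, 1.25, -1.17 and -1.08 in female sedentary pain. Females with active pain had -0.22, 0.57, 0.92 and 0.41, above every control, and 3 of the 4 samples held more Adora2b than Adora2a per length. The means of the male control, sedentary pain and active pain groups were -1.39 ± 0.20, -0.46 ± 1.70 and -0.56 ± 0.67 (SD, n = 4), with wide spread in both pain groups. P2ry6 against P2ry2, the UDP receptor against the ATP and UTP receptor, was -4.97, -4.88, -4.13 and -3.03 in female controls. Sedentary pain samples had -2.09, -0.68, -0.04 and 1.21 and active pain samples -3.09, -2.79, -1.97 and -2.69. In replicate 4 of female sedentary pain P2ry6 thus exceeded P2ry2, the most abundant gene of control muscle. Male controls had -4.14, -3.28, -2.99 and -4.19, male sedentary pain samples -0.41, -3.05, -3.01 and -2.39 and male active pain samples -2.49, -1.08, -2.53 and -2.56. All 4 active pain samples lay above every male control, and the sedentary pain samples overlapped the controls. P2rx4 to P2rx7 varied less, with means of 1.75 ± 0.35, 1.96 ± 0.47 and 1.56 ± 0.18 in female controls, sedentary pain and active pain. In males the means were 1.02 ± 0.25, 1.32 ± 0.54 and 1.28 ± 0.53 in the same order (SD, n = 4), and all 4 male controls lay below every female control.

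**Figure D4:**
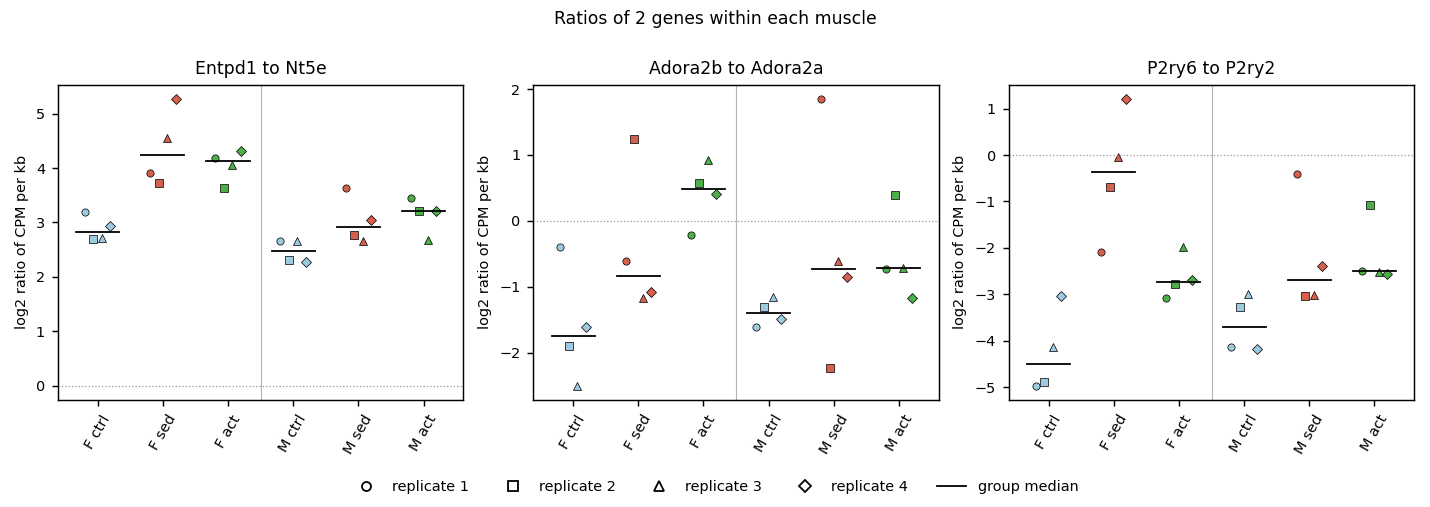
Log2 ratios of CPM per kb within each muscle for Entpd1 to Nt5e, Adora2b to Adora2a and P2ry6 to P2ry2; shapes are replicates 1 to 4, bars are group medians and the dotted line marks equal levels. P2ry6 to P2ry2 is above 0 in 1 sample only, female sedentary pain replicate 4.

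The wider system was followed in 44 further genes in 6 lists, of which 11 never reached 1 CPM in any sample and 29 were tested in females. In female sedentary pain against control, 11 rose and 7 fell, and in active against sedentary pain 2 rose and 8 fell. Their median log2 fold changes were 0.33 and -0.14, against -0.02 and 0.01 over all genes, of which 33.5% and 11.9% passed. In males 29 were also tested, and 0 passed in each of the 3 comparisons (0% of all genes). Their median log2 fold changes there were 0.15 for sedentary pain against control, 0.16 for active pain against control and -0.034 for active against sedentary pain, against -0.0081, -0.0014 and -0.035 over all genes. In female active pain against control, 0 of the 29 passed (0% of all genes), with a median of 0.078. Among the other P2Y receptors, P2ry13, an ADP receptor, had 0.260, 0.210, 0.273 and 0.183 CPM in female controls and 0.681, 1.81, 3.34 and 2.72 CPM with sedentary pain (log2 fold change 3.17 ± 0.48, adjusted p = 0.0026). P2ry1, also an ADP receptor, fell: 7.24, 8.46, 5.04 and 4.77 CPM in controls and 4.46, 2.63, 3.15 and 2.37 CPM with pain (-1.03 ± 0.26, adjusted p = 0.0143). In active pain P2ry13 was lower than in sedentary pain, at 0.539, 0.530, 1.04 and 0.486 CPM (-1.70 ± 0.43, adjusted p = 0.0333), and P2ry1 was higher, at 6.96, 6.36, 4.55 and 7.33 CPM (1.01 ± 0.26, adjusted p = 0.0342).

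Of the other extracellular nucleotide enzymes, 2 of 7 tested rose (Bst1 and Cd38) and 1 fell (Alpl) with sedentary pain in females. Bst1 (CD157), an ectoenzyme that acts on NAD, had 0.217, 0.0841, 0.391 and 0.611 CPM in controls and 3.03, 7.18, 45.3 and 61.9 CPM with pain (6.40 ± 1.04, adjusted p = 0.00285). In the list of adenosine clearance and transport, 6 of 12 tested rose and 2 fell. Pnp, purine nucleoside phosphorylase, had 2.95, 2.57, 8.24 and 6.18 CPM in controls and 12.5, 46.1, 48.3 and 99.1 CPM with pain (3.34 ± 0.64, adjusted p = 0.00458). Those that fell were Ampd1, the AMP deaminase of muscle fibres (1482 ± 200.2 to 880.4 ± 128 CPM, -0.77 ± 0.15, adjusted p = 0.00496), and Adk, adenosine kinase (47.4 ± 6.14 to 24.8 ± 8.08 CPM, -0.95 ± 0.22, adjusted p = 0.00856). Both are enzymes inside the cell, and so is Pnp. In the ATP release list, Panx1, whose channel passes ATP, rose (9.97, 7.95, 5.86 and 5.50 CPM in controls, 13.2, 25.2, 14.9 and 24.4 CPM with pain, 1.39 ± 0.27, adjusted p = 0.00458) and Ank, a pyrophosphate and ATP exporter, fell (174 ± 21.7 to 84.9 ± 33.3 CPM, -1.05 ± 0.26, adjusted p = 0.0128). Of the other P2X receptors P2rx5 rose and P2rx6 fell, of 3 tested. Adora1, the inhibitory adenosine receptor, fell, with 0.650, 0.547, 14 and 9.45 CPM in control replicates 1 to 4 and 0.303, 0.467, 0.973 and 0.424 CPM with pain. Its high controls, replicates 3 and 4, were also those with the high adipocyte marker sums given above. The 4 further genes with the smallest p in each direction in this comparison were named by rule, and Cd38, Alpl, P2rx5, P2rx6 and Adora1 outside it, so all of them were picked by their values. With 1 surrogate variable none of these genes passed, and within the lower library numbers 1 of the 44 did. The 10 calls of active against sedentary pain dropped to 0 without active pain replicate 1, 2 or 4 or sedentary pain replicate 3 or 4. They also dropped to 0 in a fit of just the 2 groups compared, and to 2 with no filter on low counts. The shares of all genes in these fits are given in the closing section. P2ry13 and P2ry1 lost their calls in both.

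**Figure D5:**
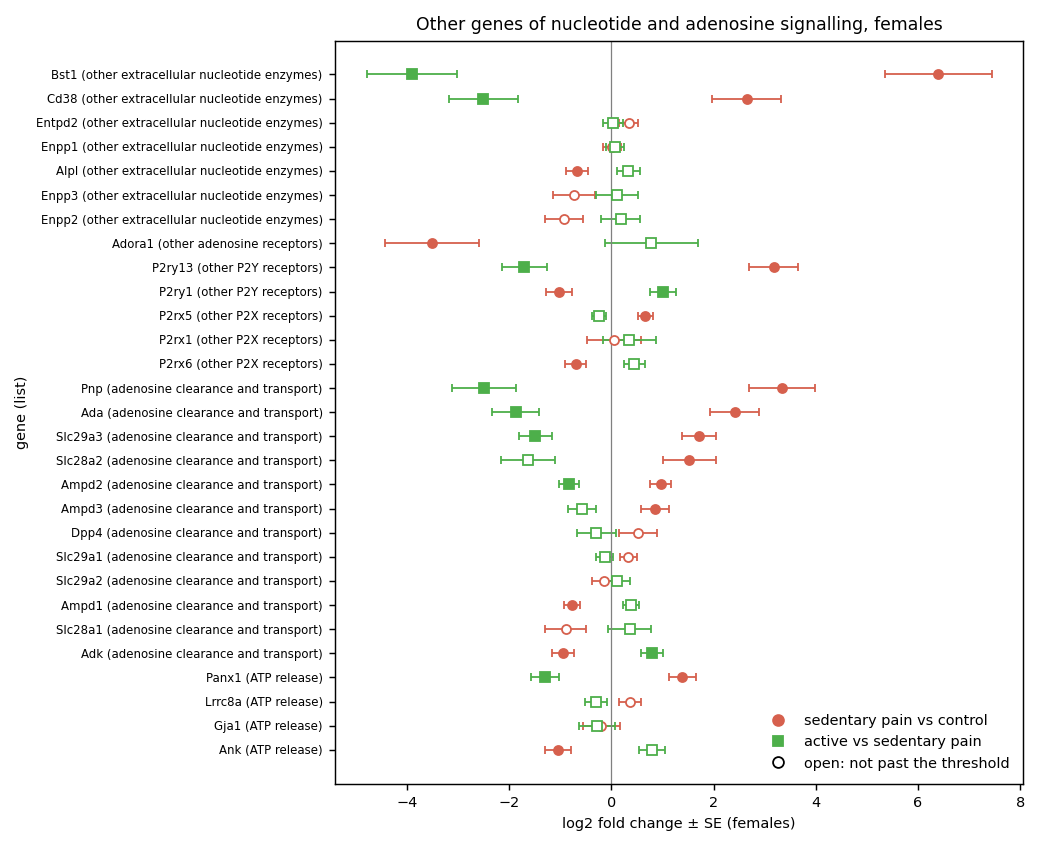
Log2 fold changes ± standard error in females of the 29 tested genes in the 6 further lists, for sedentary pain against control (red circles) and active against sedentary pain (green squares), with filled symbols for an adjusted p under 0.05. Bst1 is farthest to the right at 6.40, and Ampd1, Adk, Ank and P2ry1 lie left of 0 for sedentary pain.

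For each of the 10 genes, the pattern of log2 CPM over the 24 samples was set against 15093 genes, and the 2 with the highest Pearson correlation are named, except for Adora2a, where 1 is. The samples share groups, libraries and marker levels, and the genes were picked for these values, so the correlations are descriptions. P2rx4 was most like Cers6 (r = 0.987, rho = 0.955, and r = 0.96 without the 2 samples farthest from the median). For the rest, r, rho and r without those 2 samples are given in that order. The next for P2rx4 was Apobec3 (0.979, 0.95 and 0.935). P2rx7 was most like Ptprj (0.967, 0.882 and 0.862) and Iqgap2 (0.959, 0.846 and 0.874). Among the P2Y receptors, P2ry6 was most like Nrros (0.968, 0.96 and 0.948) and Nfam1 (0.966, 0.957 and 0.943), P2ry2 like Gm15756 (0.875, 0.81 and 0.774) and Rgma (0.873, 0.888 and 0.822), P2ry12 like Slc9a9 (0.843, 0.861 and 0.874) and Ms4a4d (0.817, 0.852 and 0.855), and P2ry14 like Osbpl3 (0.903, 0.753 and 0.665) and Frmd4b (0.879, 0.59 and 0.58). Adora2b was most like Nfe2 (0.959, 0.944 and 0.934) and Plaur (0.959, 0.898 and 0.933), and Adora2a like Nemp2 (0.917, 0.859 and 0.661). Entpd1 was most like Iqgap1 (0.958, 0.905 and 0.912) and Fgl2 (0.958, 0.903 and 0.912), and Nt5e like Slc2a3 (0.811, 0.807 and 0.749) and Ythdf1 (0.805, 0.749 and 0.721). The likeness fell most without 2 samples for P2ry14 and Adora2a, whose high values lay in replicates 3 and 4 of female sedentary pain.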

How the data were processed

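The authors deposited a table of raw read counts per Ensembl gene for each sample. The submitters' processing notes name the mm10 / GRCm38.p6 build, HISAT2 2.1.0, Salmon 0.9.1, featureCounts and DESeq2 1.24.0, with no role for each; per the labels' protocols the libraries were TruSeq stranded with paired ends. Symbols matched 54409 of the 54532 identifiers, and GENCODE M21 gave positions for 54495. Groups came from the sample labels.

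From the counts, edgeR 4.0.16 (quasi-likelihood test, TMM factors, robust, R 4.3.3) was fitted within each sex on 12 samples, and on all 24 for sex differences and for male against female controls. Genes passed filterByExpr with a minimum count of 10, which left 14511 genes in females and 14404 in males, all 10 members included; p-values were adjusted over all of them (Benjamini-Hochberg, threshold 0.05). The script was tested on simulated data. CPM are TMM-scaled, log2 CPM uses a prior count of 2, and CPM per kb divides by exon length. Depth limits the rare genes, and p-values cover the spread between samples.

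Alternatives were RLE factors, DESeq2 1.42.0, no filter, a mean of at least 50 counts, no robust step, an absolute log2 fold change of at least 1, the replicate number as a block, the library number split as a factor, 1 surrogate variable (sva 3.50.0), a fit of just the pair of groups compared, a fit of all 24 samples, and leaving out each sample. A GC and length correction and fits within the library number subsets were chosen after seeing the data. The members and gene lists were chosen with earlier results of these data known. Named beside the 10 members were the 4 other genes of the pathway lists with the smallest p in each direction in female sedentary pain against control, and the 2 genes most like each member, of which 1 is not reported here; nor is 1 list of cell type markers. Figures were drawn with matplotlib 3.10.9.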

Additional observations from a re-analysis of the deposited data

Results flagged for a closer look

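In each of the 60 combinations of a gene and a group of 4 samples, the highest or lowest CPM was set against the other 3 with Dixon's ratio, and 5 passed its 95% critical value. Chance alone flags about 1 in 20 groups. P2ry6 gave 3 of the 5. Its CPM was 13.2 in male sedentary pain replicate 1, with 2.66 to 4.08 in the others of the group. It was 8.32 in male active pain replicate 2, with 3.25 to 3.28 in the others. In female control replicate 4 it was 2.08, with 0.968 to 1.05 in the other controls. Adora2b had 4.12 CPM in male sedentary pain replicate 1 and 0.201 to 0.549 in the others. P2rx7 had 3.01 CPM in male active pain replicate 4 and 1.92 to 2.02 in the others.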

How the results depend on the processing

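Of 132 counts of members called under the alternatives other than leaving out a sample, 121 equalled the reported count or stayed within 1.5 times of it. Most of the 132 belong to comparisons with a reported count of 0, where another 0 was scored as unchanged. A threshold on the fold change can only remove calls, so it could not move these. The 121 therefore do not measure how stable the calls were. The cause was not tested for the 11 counts that moved further. In female sedentary pain against control the count of 6 became 1 with 1 surrogate variable (0.786% of all genes, from 33.5%) and 1 with library numbers of 20 and lower (1.67%). In female active against sedentary pain the count of 4 became 0 with 1 surrogate variable, 0 with library numbers of 20 and lower, 0 with only the 2 groups compared (0% of all genes in these 3, from 11.9%) and 1 without the filter on low counts (0.667%). The counts of 0 became 1 with DESeq2 for female active pain against control, male active pain against control and the sex difference of active against sedentary pain (0.862%, 0.892% and 0.936% of all genes, from 0%). They became 5 with library numbers of 25 and higher for the sex differences of sedentary pain against control and of active against sedentary pain (8.51% and 7.71% of all genes). With 1 sample left out, the counts ranged from 5 to 8 for female sedentary pain against control (16.9% to 44.9% of all genes), from 0 to 6 for female active against sedentary pain (0% to 29%) and from 0 to 5 for the sex difference of active against sedentary pain (0% to 14.1%). They stayed at 0 for the other comparisons, where at most 0.117% of all genes passed, except male against female control (1.29% to 4.05%). The count of 8 arose without female sedentary pain replicate 1 (44.9%) and without replicate 2 (24.4%).

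Same-numbered replicates were not paired by the labels. The correlation of their deviations from the group means averaged 0.109 in females (-0.32 to 0.415) and 0.0131 in males (-0.647 to 0.592). With the replicate block the counts were 6 and 4 in the female comparisons with sedentary pain (25.8% and 11.2% of all genes) and 0 elsewhere (0% of all genes, and 2.23% for male against female control); against control, P2ry12 no longer passed (adjusted p = 0.0575) and Adora2a did (adjusted p = 0.0495).

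Of 729 values of single members, 25 changed direction, none of them a called one. With 1 surrogate variable, female sedentary pain against control gave 0.35 for P2ry2, -0.45 for P2ry14 and -0.64 for Adora2a on the log2 scale. Female active pain against control gave -0.15 for P2rx4, 0.13 for P2ry2 and -0.043 for P2ry14, and female active against sedentary pain gave -0.22 for P2ry2 and 0.41 for P2ry14. In males it gave -0.32 for Adora2b with sedentary pain, and -0.16 for Adora2a and -0.38 for Adora2b with active pain. Library numbers of 20 and lower gave P2ry14 -0.59, -0.047 and 0.55 in the 3 female comparisons, P2ry12 0.15 in female active against sedentary pain, Nt5e 0.053 in male sedentary pain and a sex difference of -0.22 for Entpd1. Numbers of 25 and higher gave -0.12 for P2rx4 and 0.27 for P2ry2 in female active pain against control, and -0.13 for Adora2a in male active pain. The GC and length correction gave 0.015 for Nt5e in male sedentary pain and -0.20 for Adora2a in male active pain. Adora2a in male active pain was -0.010 without the filter and -0.00092 with the library split as a factor, and P2ry2 in female active pain against control was 0.0066 with the replicate block. With 1 sample left out, values against control ranged from -0.086 to 0.17 for Adora2a in male active pain, from -0.21 to 0.042 for Adora2a in male sedentary pain, from -0.11 to 0.36 for P2rx4 in female active pain and from -0.18 to 0.11 for P2ry2 in female active pain. RLE factors moved the median of all genes by -0.0207 to 0.0135 (log2) over the comparisons. Depth limits P2ry12 most, with 3 reads in its lowest sample.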
